A study of Mus musculus with 8 samples.

Results

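Crisp1 and 6 further genes known for their expression in the epididymis, namely Lcn5, Lcn8, Adam7, Cst8, Gpx5 and Cst11, were followed in testis RNA of Ctcfl mutant mice and their controls. The genes were taken by symbol from the table of all arrays, where each had 1 probe set, giving 7 of 45101 probe sets in all. The set was chosen by the log2 level of Crisp1, which is high on wildtype replicate 1 and mutant replicate 8, and the question was whether the other 6 genes follow it. The pattern of Crisp1 over the arrays is therefore given as a description, without a test. RNA came from testes of mice at postnatal day 23 on a C57/Bl6 background, with 1 Affymetrix Mouse430_2 array per sample. Replicates 1, 2, 4, 6 and 7 are labelled wildtype and replicates 3, 5 and 8 are labelled Ctcfl mutant. The mutant allele lacks exons 1 to 8 of Ctcfl, a male germ cell relative of the insulator gene Ctcf, and was made by Cre recombination between loxP sites. According to the study, the mutants are homozygous for this allele and the controls are heterozygous littermates. The controls are called wildtype below, as in the labels. The targeted gene was not analysed here and gave no check of genotype. How epididymis and fat were removed before RNA extraction is not given in the sources used here.

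The epididymis is the coiled duct that receives sperm from the testis and in which they mature. Its epithelium secretes, segment by segment and largely under androgen control, proteins that coat the sperm surface or change the luminal fluid. Crisp1 encodes a cysteine-rich secretory protein of this kind that binds to sperm and takes part in fusion with the egg. Lcn5 and Lcn8 encode epididymal lipocalins, small carriers of lipophilic ligands, and Lcn5 binds retinoic acid. Gpx5 encodes a secreted glutathione peroxidase, Cst11 and Cst8 encode cystatin family proteins, and Adam7 encodes a membrane protein that is transferred to sperm. Cst8, also called Cres, is known from the germ cells of the testis too, in spermatids.

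The sequences upstream of the gene start were looked up in RefSeq windows of GRCm38.p6, which held 5 of the 7 genes, that is all but Adam7 and Cst11. The 250 bases before the start are printed for Crisp1, the gene with the array pattern, and for Lcn5, which did not share it, since these were the 2 of the 5 with the letters TATAAA in the window. Capitals mark TATAAA, searched on both strands as TATAAA and TTTATA. Crisp1 lies on the minus strand at chr17:40319208-40319457 and Lcn5 on the plus strand at chr2:25657702-25657951.
Crisp1: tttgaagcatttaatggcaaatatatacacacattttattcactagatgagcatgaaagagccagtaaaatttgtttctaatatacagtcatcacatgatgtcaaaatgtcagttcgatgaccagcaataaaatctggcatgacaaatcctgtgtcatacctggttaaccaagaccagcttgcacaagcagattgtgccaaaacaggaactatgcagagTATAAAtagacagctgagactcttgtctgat
Lcn5: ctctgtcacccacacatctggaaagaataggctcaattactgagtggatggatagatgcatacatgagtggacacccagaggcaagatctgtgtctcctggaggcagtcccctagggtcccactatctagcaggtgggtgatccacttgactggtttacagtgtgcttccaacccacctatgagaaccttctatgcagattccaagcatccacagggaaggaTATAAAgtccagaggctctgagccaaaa
The match began 31 bases before the start in Crisp1 and 28 bases before it in Lcn5, and 12.4% of all 32851 windows held these letters. AGAACA, the core letters of an androgen response element, searched with TGTTCT, was in none of the 5 windows and in 16.1% of all. The windows of Lcn8, Cst8 and Gpx5 held neither motif. These are matches of letters in a window and were not related to the levels.

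The 8 arrays were not alike in their levels of cell type markers. Wildtype replicate 7 and mutant replicate 8 stood apart, with scores of 40.2 and 38.2 on the axis of largest variance (44.9% of the total), and the other arrays lay between -24.8 and -3.10. The 8 spermatid markers, all 8 of which were highest on these arrays, summed on the linear scale to 23122 in wildtype replicate 7 and to 15792 in mutant replicate 8, against 3707 to 5891 elsewhere. The testis identity of every sample was borne out by its markers, with Ldhc, the germ cell lactate dehydrogenase, at 14.29 to 14.36 and the Sertoli cell list at a mean log2 level of 8.89 to 9.17. In whole testis RNA, fewer cells of a type and less RNA per cell cannot be told apart. The level of a probe set is a log2 intensity and is compared between arrays, not between probe sets.

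Crisp1 had log2 levels of 5.82, 3.29, 3.17, 3.17 and 3.28 in wildtype replicates 1, 2, 4, 6 and 7 and of 3.25, 3.34 and 6.38 in mutant replicates 3, 5 and 8. Thus 1 array of each genotype was high, and the other 6 lay within 3.17 to 3.34. Against the median of the 8 arrays, wildtype replicate 1 was higher by 2.54 and mutant replicate 8 by 3.10 on the log2 scale. On the 6 low arrays the Crisp1 probe set lay near the bottom of the array, with 0.175% to 1.12% of probe sets lower, so these differences are lower bounds. Mutant replicate 8 exceeded wildtype replicate 1 by 0.56 on the log2 scale. Mutant replicate 8 was also among the arrays that stood apart by the spermatid markers. Wildtype replicate 7, the other such array, had a Crisp1 level of 3.28. The part of spermatids in the level of Crisp1 was not tested.

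**Figure D1:**
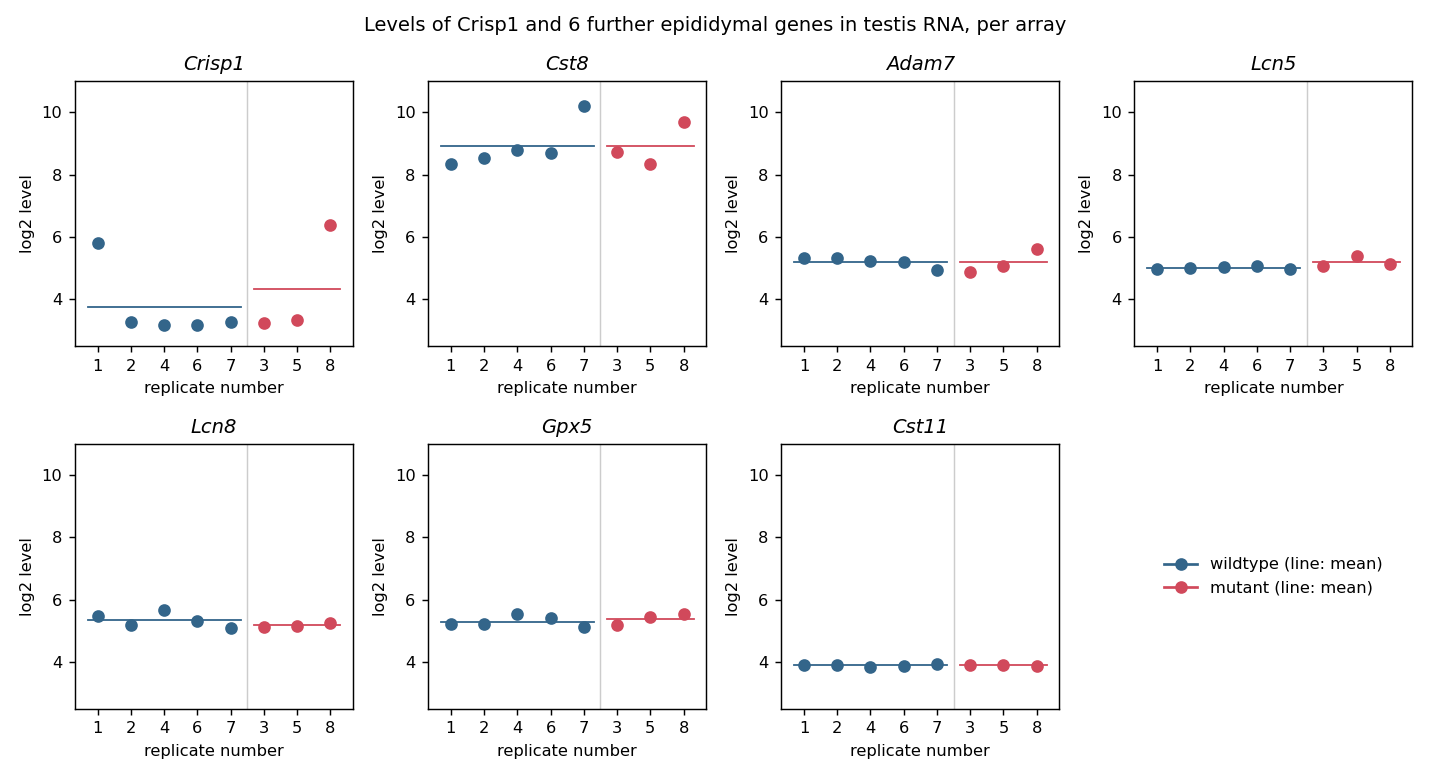
Log2 level of Crisp1 and the 6 further genes on each array, with replicate numbers on the x axis, wildtype in blue, mutant in red and a line at the group mean. Crisp1 is high on wildtype replicate 1 (5.82) and mutant replicate 8 (6.38), whereas Cst8 is high on wildtype replicate 7 (10.20) and mutant replicate 8 (9.67); heights are not comparable between panels.

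To compare other genes with this pattern, a gap was computed for each probe set as the lower of wildtype replicate 1 and mutant replicate 8 minus the highest of the other 6 arrays, on the log2 scale. Crisp1 had a gap of 2.48, the largest of the 45037 probe sets that are not controls and the only one of at least 1, or 0.00222% of them. A gap of at least 0.5 was reached by 3 probe sets, 0.00666% of all, and a gap above 0 by 935, or 2.08%. These shares are the background for the genes that follow. The value of Crisp1 itself follows from the way it was chosen.

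Of the 6 other genes, Adam7 came nearest to the pattern, with a gap of 0.0046. Its levels were 5.32, 5.31, 5.24, 5.20 and 4.94 in wildtype and 4.87, 5.07 and 5.61 in mutant testis, in the order of the replicates. Mutant replicate 8 was thus the highest array, whereas wildtype replicate 1 lay within 0.0046 of wildtype replicate 2. Among the 7 genes, 2 had a gap above 0, Crisp1 by choice and Adam7 by this margin.

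The lipocalin genes did not share the pattern. Lcn5 had levels of 4.96, 4.99, 5.05, 5.05 and 4.98 in wildtype and 5.06, 5.40 and 5.13 in mutant testis, so that wildtype replicate 1 was its lowest array. Its neighbour Lcn8, with no protein-coding gene between them on chromosome 2, had levels of 5.48, 5.18, 5.68, 5.32 and 5.08 in wildtype and 5.14, 5.17 and 5.26 in mutant testis. For Lcn8 the highest array was wildtype replicate 4, and its gap was -0.42, near that of Lcn5 at -0.44. The values of both genes spanned 0.44 and 0.60 over the 8 arrays, where those of Crisp1 spanned 3.21. Over the arrays, 27.1% to 33.6% of probe sets lay below Lcn5 and 29.0% to 37.2% below Lcn8. Whether these transcripts were detected at all was not tested.

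Gpx5 and Cst11 were also without the pattern. Gpx5 had levels of 5.21, 5.21, 5.54, 5.40 and 5.12 in wildtype and 5.18, 5.45 and 5.54 in mutant testis, with its highest values on wildtype replicate 4 and mutant replicate 8. Cst11 had levels of 3.89, 3.90, 3.84, 3.86 and 3.95 in wildtype and 3.90, 3.91 and 3.89 in mutant testis. All 8 values of Cst11 lay within 0.11, the narrowest span of the 7 genes. The gaps were -0.33 for Gpx5 and -0.064 for Cst11.

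Cst8 was high on another set of arrays. Its levels were 8.33, 8.54, 8.77, 8.68 and 10.20 in wildtype and 8.71, 8.33 and 9.67 in mutant testis. Wildtype replicate 7 and mutant replicate 8 were above the other 6 arrays, which lay within 8.33 to 8.77, and wildtype replicate 1, high for Crisp1, was the lowest. Over all probe sets, 8.61% had these 2 arrays above the others. The same 2 arrays were highest for 8 of 8 spermatid markers, among them Prm1, a protamine gene whose product packs sperm DNA (probe set with a cross-hybridisation suffix), at 12.12 and 11.55 against 8.14 to 9.41. Their part in the level of Cst8 was not tested.

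The cystatin genes of chromosome 2 were set beside Cst8. Cst13, which follows Cst8 with no protein-coding gene between them, reached 7.97 in wildtype replicate 7 and 6.95 in mutant replicate 8 and lay at 4.81 to 5.21 elsewhere. It thus had the same 2 arrays highest as Cst8. Cst12, the neighbour on the other side, lay between 11.72 and 12.17, with its highest value on mutant replicate 5. Cst9, which follows Cst13 and encodes testatin, known from Sertoli cells, lay between 11.87 and 12.34 and was highest on mutant replicate 5 too. Cst11, separated from Cst8 by 2 genes, showed neither pattern.

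A wider list of 48 epididymal genes was then examined, of which 19 had a probe set under a current name. The 4 further lipocalin and CRISP genes, 2 cystatin and RNase genes, 6 beta-defensins, 5 protease inhibitors and 2 others were covered. Not all of the 19 were dim in testis RNA. The lowest share of probe sets below them on any array was 97.6% for Cst12, 96.1% for Wfdc15a, 79.6% for Wfdc6a and 59.2% for Rnase10. Counts and medians over the 19 genes include these, although a small added amount would change a bright gene little. A gap above 0 was found for 3 of the 19, and 1 of these reached 0.5, Spink8, a Kazal-type protease inhibitor gene. Spink8 had levels of 6.37, 5.85, 5.78, 5.72 and 5.79 in wildtype and 5.63, 5.53 and 7.56 in mutant testis. Mutant replicate 8 stood 1.78 and wildtype replicate 1 0.58 above the 8-array median, so both Crisp1-high arrays were highest for Spink8, with a smaller rise than for Crisp1.

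The other genes of the wider list with a gap above 0 were Ces5a, an esterase gene, and Serpina1f, a serpin gene. Ces5a was at 6.40 on mutant replicate 8 and 6.11 on wildtype replicate 1 and at 5.57 to 5.94 on the others, a gap of 0.17. Its 2 other probe sets, with IDs that mark possible cross-hybridisation, had gaps of -0.084 and -0.24. Serpina1f was at 4.27 and 4.21 on these arrays and at 3.75 to 4.01 on the others, a gap of 0.20. Defb42, a beta-defensin gene, was highest on mutant replicate 8 at 5.00, but wildtype replicate 1, at 4.49, lay below wildtype replicate 6, at 4.57.

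The remaining genes of the wider list showed no such pattern. Crisp4, another CRISP gene of the epididymis, lay between 3.27 and 3.50 on all 8 arrays. Crisp3 lay between 3.11 and 3.28. Crisp2, the CRISP gene of spermatids and sperm, which is not on the wider list, lay between 13.47 and 13.65. Defb15 spanned 0.67 and Lcn12 spanned 0.49, both highest on wildtype replicate 4. Mutant replicate 8 departed from the 8-array medians of the 19 genes by 0.094 in the median, and wildtype replicate 1 by 0.011. For the 6 genes beside Crisp1 these medians were 0.16 and -0.047. Of the 19 genes, 16 lay above their own median on mutant replicate 8, 10 on wildtype replicate 1 and 7 to 13 on the other arrays. A high count on mutant replicate 8 was not particular to this list. There it was 8 of 8 for spermatid, 9 of 11 for fat and 6 of 7 for gland genes. It was 6 of 10 for eye, pancreas and brain genes, 2 of 8 for Sertoli and 2 of 6 for Leydig genes. The same share over all probe sets was not counted.

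**Figure D2:**
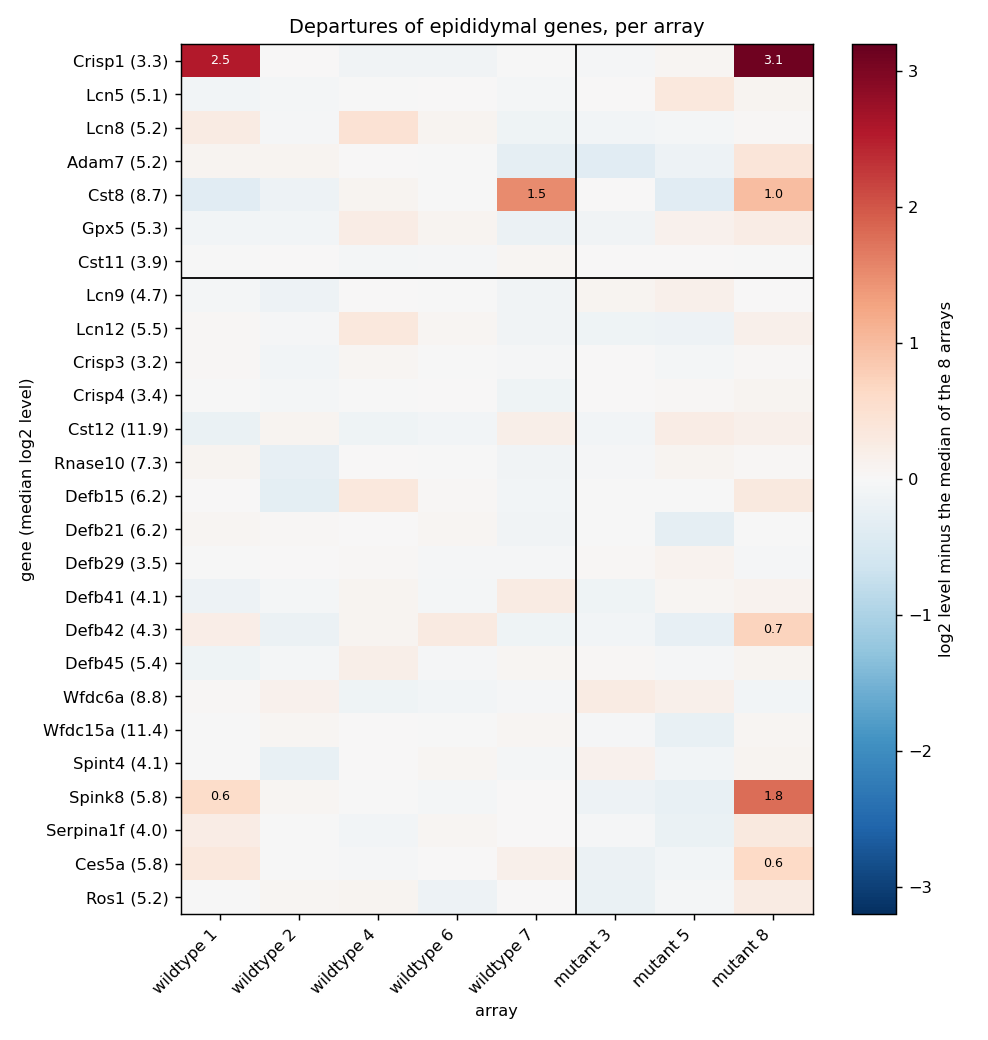
Departure of each epididymal gene from its own median over the 8 arrays, on the log2 scale, with genes in rows (7 genes above the line, 19 of the wider list below, median level in brackets) and arrays in columns. Departures of at least 0.5 in size are printed; Crisp1 and Spink8 are the 2 genes with printed values on both wildtype replicate 1 and mutant replicate 8, and Cst8 departs on wildtype replicate 7 and mutant replicate 8.

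Among all probe sets the ones most like Crisp1 by gap were those of Cd52, at 0.86, and Spink8, at 0.52. Cd52 encodes a short glycopeptide known both from lymphocytes and from the epididymal epithelium, which sheds it onto sperm. Its levels were 6.59, 5.40, 5.34, 5.39 and 5.29 in wildtype and 5.73, 5.06 and 7.09 in mutant testis. Of the 2 probe sets of the leukocyte gene Ptprc, the first lay between 3.80 and 4.20 and was highest on wildtype replicate 2, and the other lay between 4.94 and 5.18 and was highest on wildtype replicate 6. The part of leukocytes in the level of Cd52 was not tested. Just below the threshold of 0.5 were Wfdc15b, a gene of the family of whey acidic protein-type inhibitors, with a gap of 0.40, an unnamed probe set with 0.36, and Cuzd1 with 0.33, which were chosen after their values were seen. Cd52 and Spink8 were, like Crisp1, higher on mutant replicate 8 than on wildtype replicate 1.

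**Figure D3:**
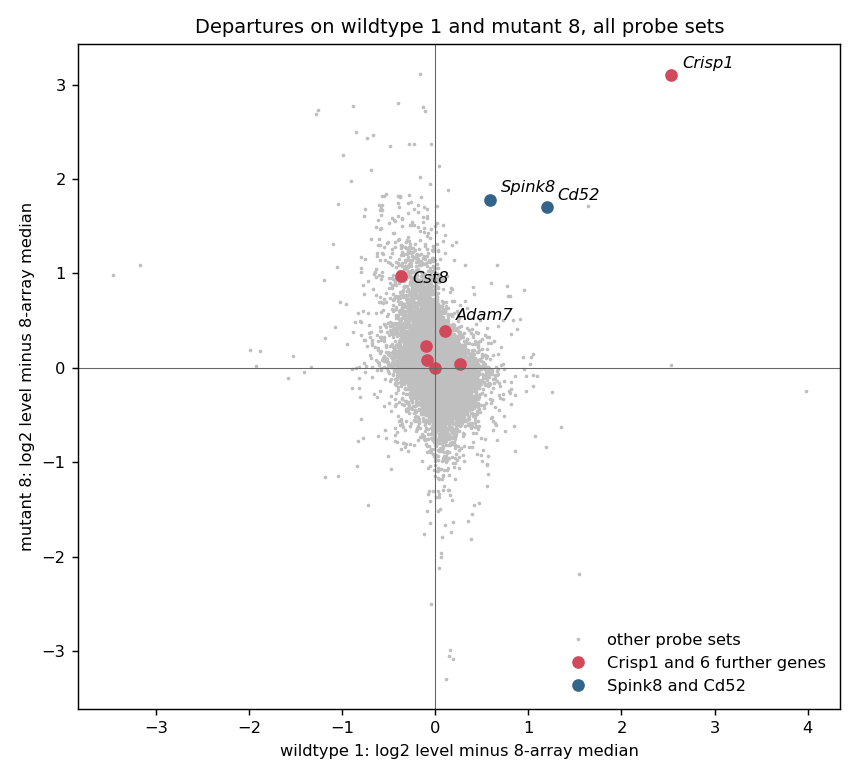
Departure of every non-control probe set from its 8-array median (log2) on wildtype replicate 1 (x axis) and on mutant replicate 8 (y axis), with the 7 genes in red and Spink8 and Cd52 in blue. Crisp1 lies at 2.54 and 3.10, Cd52 at 1.20 and 1.70 and Spink8 at 0.58 and 1.78, whereas the other 6 red points lie within 0.37 of 0 on the x axis.

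Markers of tissues next to the testis were read on the same arrays. Of the 11 measured genes of the rete testis and efferent ducts none had a gap above 0, and their median departures were 0.0099 for wildtype replicate 1 and 0.032 for mutant replicate 8. Of the 7 genes of accessory sex glands and vas deferens 1 had a gap above 0, Akr1b7, with 5.45 on mutant replicate 8 and a span of 0.51. Svs5 had the widest span of these genes, 1.08, from 5.61 on wildtype replicate 6 to 6.68 on wildtype replicate 2. Another Svs5 probe set, the one that varied most, ran from 4.25 on wildtype replicate 4 to 6.70 on wildtype replicate 2. It was at 6.40 on wildtype replicate 1 and 4.53 on mutant replicate 8. All probe sets of Svs5 carry a suffix. The gland genes had a median departure of 0.15 in wildtype replicate 1, the highest array, against 0.053 in mutant replicate 8. The summed linear level of the duct list was 900 to 1287 in wildtype and 989 to 1277 in mutant testis, and that of the gland list 151 to 214 and 169 to 202. Epcam, the brightest gene of the duct list, weighed most in its sum. It lay between 8.88 on wildtype replicate 4 and 9.76 on wildtype replicate 7. The 10 genes of eye, pancreas and brain, read as a reference, spanned 0.35 to 0.56 each, and the spans of Lcn5 (0.44) and Gpx5 (0.43) lay within that range, those of Lcn8 (0.60) and Adam7 (0.74) above it and that of Cst11 (0.11) below it. Their part in the levels of Crisp1 was not tested.

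Of the 11 fat genes, 7 were highest on wildtype replicate 7 and mutant replicate 8, where 8.61% of all probe sets had these arrays highest. Adipoq, which encodes adiponectin, was at 5.99 on wildtype replicate 1, 8.39 on wildtype replicate 7, 8.27 on mutant replicate 8 and 5.55 to 6.62 on the others. The summed linear level of the 11 fat genes was 1388 to 3257 in wildtype and 1321 to 3374 in mutant testis, with 1388 in wildtype replicate 1. By main probe set, Lep, Thrsp, Fabp4 and Cidea did not have this order. Cidea, at 8.05 in wildtype replicate 7 and 8.08 in mutant replicate 8, was lowest there. Other probe sets of Fabp4 and Thrsp did have this order, although a further one of Fabp4 did not. A brighter Fabp4 probe set, with a suffix, was at 9.61 in wildtype replicate 7 and 9.16 in mutant replicate 8, against 5.12 to 6.96 elsewhere. A Thrsp probe set without a suffix was at 6.72 and 6.75 there, against 5.72 to 6.20 elsewhere. The part of fat in the levels of Crisp1 was not tested.

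**Figure D4:**
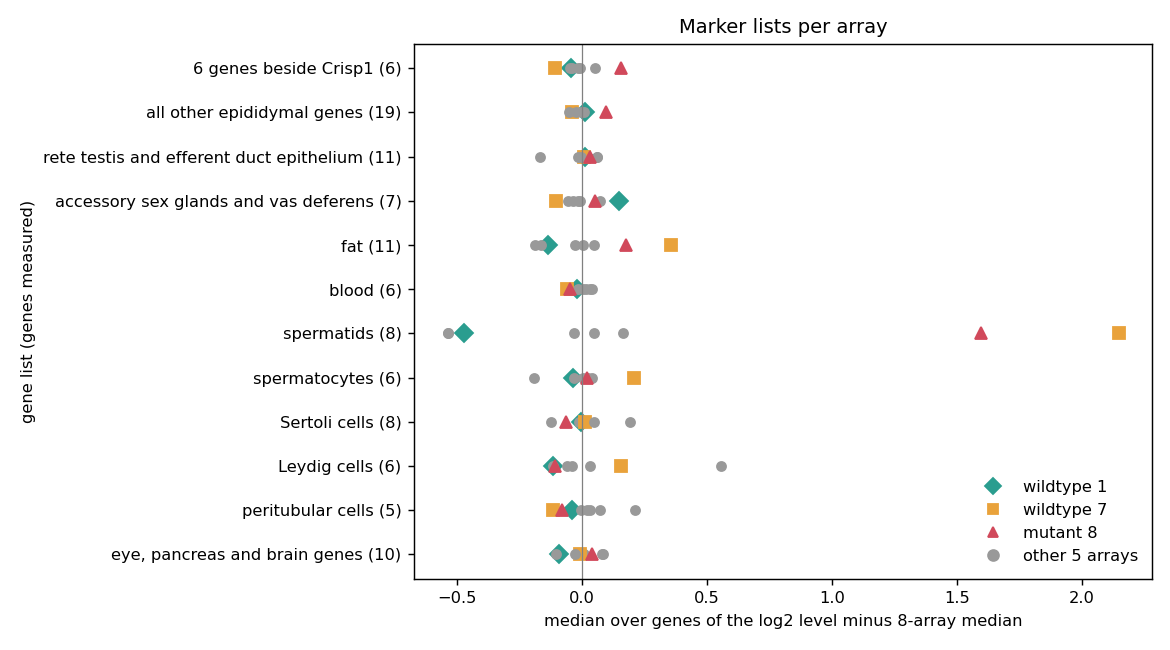
Median over the genes of each list of the log2 level minus the 8-array median, with lists in rows (genes measured in brackets) and 1 symbol per array. Spermatid and fat genes set wildtype replicate 7 and mutant replicate 8 apart (spermatids 2.15 and 1.60), whereas wildtype replicate 1 and mutant replicate 8 lie at 0.011 and 0.094 for the 19 genes of the wider epididymal list.

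Genotype was compared over the 8 arrays with limma, which fits all probe sets together. At a Benjamini-Hochberg adjusted p of 0.05, 0 of 45101 probe sets passed, or 0% of all, and none of the 7 genes did. At an unadjusted p of 0.05 the count was 1564, or 3.47% (796 higher in mutant testis, 1.76%, and 768 lower, 1.7%), and a one-way comparison with a variance for each probe set gave 1708. Of the 7 genes 1 was among them, Lcn5, on the higher side. Crisp1 averaged 3.75 ± 1.16 (SD, n = 5) over the wildtype arrays and 4.32 ± 1.78 (SD, n = 3) over the mutant arrays, a difference of 0.58 (SE 0.80). The gene was chosen for being high on 1 array of each genotype, so this difference is given without a test. It was smaller than the spread within either group and reversed to -0.45 without mutant replicate 8. Without both high arrays the groups differed by 0.067.

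Among the 6 other genes, Lcn5 was the only one with non-overlapping groups, and 2.7% of all probe sets had this property. The groups were barely apart, with 5.05 in wildtype replicate 6 and 5.06 in mutant replicate 3. The probe set was also dim, with 27.1% to 33.6% of probe sets lower over the arrays. The mean of Lcn5 was 5.01 ± 0.042 (SD, n = 5) over the wildtype arrays and 5.20 ± 0.18 (SD, n = 3) over the mutant arrays, higher by 0.19 (SE 0.083). The limma p was 0.0446 before and 1.0 after adjustment, and the exact two-sided permutation p was 0.0357, the smallest that 5 against 3 arrays allow. The difference was 0.090 without mutant replicate 5, whose value of 5.40 set most of it. Lcn8 differed by -0.16 (SE 0.13), Gpx5 by 0.095 (SE 0.12), Adam7 by -0.020 (SE 0.16) and Cst11 by 0.0085 (SE 0.059), all with a limma adjusted p of 1.0.

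Cst8 averaged 8.90 ± 0.74 (SD, n = 5) over the wildtype arrays and 8.90 ± 0.69 (SD, n = 3) over the mutant arrays, and mutant minus wildtype was -0.00092 (SE 0.42). Each group held 1 of the arrays that stood apart. Mutant minus wildtype was -0.53 between these arrays, with no replicate, and -0.061 among the other 6. The difference was 0.32 without wildtype replicate 7 and -0.38 without mutant replicate 8. Over the 19 genes of the wider list, 13 were higher and 6 lower in mutant testis, where 23219 of all 45101 probe sets were higher and 21882 lower. The median difference was 0.043 for the 19 genes and 0.0032 for all probe sets. Of the 19 genes, 1 had an unadjusted limma p under 0.05, Lcn9, higher by 0.16 (SE 0.068).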

How the data were processed

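Per the labels and the study's methods, total RNA from testis was hybridised to Affymetrix Mouse430_2 arrays, and the authors applied RMA background correction and quantile normalisation. The deposited table held 1 log2 level per probe set and array, which was used as deposited. The table also held group means and the authors' own comparison (log2 differences, fold values and p-values), and a further pair of tables held their limma output; none of these columns was used. Processing of this kind forces the arrays to near-equal distributions (medians 6.40 to 6.45 here), and low levels are compressed, so a change in a dim probe set is understated.

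Probe sets were named through their Entrez ID in a RefSeq gene table (GRCm38.p6), which named 33571, and otherwise by the symbol in the file for 5481. A further 6049 had no name, and 64 controls were left out of gap counts. The main probe set of a gene was one without a suffix for cross-hybridisation where one exists, then the one with the highest mean. Genotype was tested over all 45101 probe sets by a two-sided moderated test (limma 3.58.1, lmFit and eBayes, under R 4.3.3), adjusted after Benjamini and Hochberg, and for single genes with an exact permutation of the 8 arrays in scipy 1.17.1 (Python 3.11.15). The fit was tested on simulated data first. Groups and replicate numbers came from sample titles, so p-values measure the spread between these samples. The number of arrays, 5 and 3, limits the precision.

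Named genes were all 7 genes, then, of the wider epididymal list, those with a gap of at least 0.5 and the next 5 by span, up to 3 per marker list by span, and of all probe sets those with a gap of at least 0.5. Other genes, such as family members, neighbours, Ldhc, Ptprc and Akr1b7, were chosen after their values were seen. Members and lists were chosen with earlier results of these data known. Alternatives were leaving out each array or a pair of arrays, a filter on the median level, centring, repeated quantile normalisation, a trended robust prior, array weights, single-gene variance, 1 probe set per gene, and other gap thresholds.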

Additional observations from a re-analysis of the deposited data

Results flagged for a closer look

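In the 5 wildtype arrays, 28 measures (the levels of 9 genes and the means of 19 lists) were searched for a single array lying far off, and 8 had one. Chance gives about 1 in 20 for measures chosen without regard to the arrays, which does not hold here. Crisp1 was chosen for being high on wildtype replicate 1, and Cd52 and Spink8 for a gap that needs this array to be highest, so their values are a description. Genes and lists also share members. With 3 arrays, the mutant group could not be searched in this way.

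Wildtype replicate 1 stood out for Crisp1, at 5.82 against 3.29 on the nearest other wildtype array, for Cd52, at 6.59 against 5.40, and for Spink8, at 6.37 against 5.85. It also stood out for the mean level of the epididymal protease inhibitor list, which holds Spink8, at 6.97 against 6.80. Wildtype replicate 7 stood out for Cst8, at 10.20 against 8.77, and for the mean levels of the spermatid list, at 11.08 against 9.09, of the Leydig list, at 8.77 against 8.53, and of the testis relatives of the 7 genes, which hold Cst13, at 12.14 against 11.60. For the Leydig list, mutant replicate 3, outside this search, was higher still at 9.07.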

How the results depend on the processing

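No paired analysis was possible because no replicate number occurs in both genotypes. The count of 0 probe sets past the adjusted threshold held under all 17 other fits, and was 1564 at an unadjusted p of 0.05 and 1708 so with single-gene variance. The count of 1 probe set with a gap of at least 1 held after centring, repeated quantile normalisation and leaving out wildtype replicate 7. It was 0 above the median level, where Crisp1 is not tested, 3 at a gap of 0.5 and 935 at a gap above 0. It was 2, Crisp1 and Cd52, with the gap taken within each genotype. The gap above 0, the gap within genotype, the omission of wildtype replicate 7 and the unadjusted single-gene count were chosen after seeing the data. Against the linear mean of the 8 arrays, Crisp1 departed by 1.20 on wildtype replicate 1 and 1.76 on mutant replicate 8, since that mean contains both high values. No alternative probe set exists for the 7 genes, and the filter on the median level kept only Cst8.

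Leaving out 1 array, the genotype difference ranged from -0.45 to 1.12 for Crisp1, 0.090 to 0.26 for Lcn5, -0.22 to -0.075 for Lcn8, -0.24 to 0.14 for Adam7, -0.38 to 0.32 for Cst8, 0.020 to 0.20 for Gpx5 and -0.0037 to 0.024 for Cst11. Without both wildtype replicate 7 and mutant replicate 8, Crisp1 reversed to -0.57 and Gpx5 to -0.025, and without both wildtype replicate 1 and mutant replicate 8 Gpx5 reversed to -0.0011. The Adam7 difference moved from -0.020 to -0.30 in the first case and to -0.21 in the second. With array weights the Crisp1 difference was 0.073. The cause of these changes was not tested. Lcn5 and Lcn8 kept their direction under all alternatives, and no gene passed the adjusted threshold under any.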
